A study of Mus musculus with 11 samples.

Results

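The late stem cell network genes are 10 genes chosen as on in mouse embryonic stem cells and near the detection floor elsewhere. They are Nanog, Sox2, Esrrb, Tfcp2l1, Zfp42, Tdgf1, Lin28a, Dppa2, Dppa4 and Dppa5a, 10 of the 22180 genes that had a probe set with a single gene symbol. Dppa2 was also on in the partially reprogrammed line SC4. Dppa5a had only 147.8 in stem cells at a floor of 100, and Nanog had 167.1 in CD73- cells at day 9. The 10 were chosen for that pattern on these same arrays, so the difference between stem cells and the other arrays is given as a description, with no test. Gene expression was measured on 11 Affymetrix whole-transcript arrays, 1 for each group, so no group has a replicate. The groups were V6.5 mouse embryonic stem cells (ESC, passage 11), the partially reprogrammed line SC4 (passage 10), 4 populations of reprogramming fibroblasts at days 9 and 6, and uninfected mouse embryonic fibroblasts (MEF, passage 4). The reprogramming populations were CD49d+ cells and CD73+ cells, which the labels call poised, CD73- cells, called non-poised, and unsorted cells. They and the MEF were Rosa-rtTA +/-, that is, they carry the activator that doxycycline switches on. The reprogramming cells had in addition received viruses for 4 factors under its control, tetO-Sox2, tetO-Klf4, tetO-Myc and tetO-Oct4, and day 0 was the day doxycycline was added. SC4 is a single line, the sorted populations were double sorted for their surface marker, and the ESC medium held LIF. Values are deposited linear intensities, and none lies below 100. A value at this floor is an upper bound, and a fold against it is written as at least that fold.

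Pluripotent stem cells are held in their state by transcription factors that bind each other's genes as well as their own. Nanog, Sox2, Esrrb and Tfcp2l1 belong to this circuit beside Oct4, and in reprogramming fibroblasts the cells' own copies of such genes are known to come on late, after fibroblast genes have been lost and epithelial genes gained. The other genes of the set act around the circuit: Zfp42 (REX1) is a zinc finger protein used as a marker of the undifferentiated state, Tdgf1 (Cripto) is a co-receptor for Nodal, Lin28a binds RNA and blocks maturation of let-7 microRNAs, and Dppa2 and Dppa4 are paired DNA-binding proteins that open early embryonic genes.

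The stretch around the transcription start is shown for 5 of the genes, since some of these promoters hold the letters bound by the introduced factors. The RefSeq promoter table (build GRCm38.p6) has windows of 300 bases, 250 before and 50 after the start, for 7 of the 10 genes and none for Dppa2, Dppa4 and Dppa5a. Nanog and Esrrb have more than 1 window there, and the second one of Nanog is printed. Each is written 5′ to 3′ on the strand of the gene. Capitals mark the POU and SOX composite (TGCATNACA) with the SOX core (ACAATG) that overlaps it, the octamer of POU factors (ATTTGCAT) and the KLF site (GGGNGTGG), on either strand. The windows lie at chr6:122707315-122707614 (plus strand) for Nanog, chr8:43306960-43307259 (minus) for Zfp42, chr9:110946109-110946408 (minus) for Tdgf1, chr1:118627695-118627994 (plus) for Tfcp2l1 and chr3:34649745-34650044 (plus) for Sox2.
Nanog: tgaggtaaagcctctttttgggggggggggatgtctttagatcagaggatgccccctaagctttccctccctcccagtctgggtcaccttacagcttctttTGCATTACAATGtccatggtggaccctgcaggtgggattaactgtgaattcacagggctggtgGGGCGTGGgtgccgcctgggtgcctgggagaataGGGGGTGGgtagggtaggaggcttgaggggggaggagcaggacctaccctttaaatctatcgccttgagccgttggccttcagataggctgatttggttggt
Zfp42: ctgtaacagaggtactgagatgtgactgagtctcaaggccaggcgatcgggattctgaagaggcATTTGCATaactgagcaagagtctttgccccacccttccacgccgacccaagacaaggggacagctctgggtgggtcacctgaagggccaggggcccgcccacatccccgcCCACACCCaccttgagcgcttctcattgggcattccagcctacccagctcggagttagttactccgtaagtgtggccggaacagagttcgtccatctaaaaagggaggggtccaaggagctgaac
Tdgf1: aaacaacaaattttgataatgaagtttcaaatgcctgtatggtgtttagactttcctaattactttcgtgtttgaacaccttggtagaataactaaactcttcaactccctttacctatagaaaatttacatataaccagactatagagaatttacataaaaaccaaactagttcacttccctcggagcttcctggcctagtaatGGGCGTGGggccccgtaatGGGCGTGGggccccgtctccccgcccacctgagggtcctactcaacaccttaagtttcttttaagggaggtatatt
Tfcp2l1: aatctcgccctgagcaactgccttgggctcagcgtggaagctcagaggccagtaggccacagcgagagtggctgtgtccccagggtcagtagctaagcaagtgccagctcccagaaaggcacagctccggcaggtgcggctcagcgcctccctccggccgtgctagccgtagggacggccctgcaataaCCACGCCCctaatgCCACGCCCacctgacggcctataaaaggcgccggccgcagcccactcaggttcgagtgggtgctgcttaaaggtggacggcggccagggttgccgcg
Sox2: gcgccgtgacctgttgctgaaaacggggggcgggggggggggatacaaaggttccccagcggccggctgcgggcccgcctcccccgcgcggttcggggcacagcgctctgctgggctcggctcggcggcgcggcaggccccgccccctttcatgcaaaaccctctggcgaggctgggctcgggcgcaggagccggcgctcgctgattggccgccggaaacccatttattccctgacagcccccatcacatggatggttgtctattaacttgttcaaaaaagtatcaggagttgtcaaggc

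The KLF site was found in 5 of the 9 windows, those of 4 of the 7 genes (Nanog, Tdgf1, Zfp42 and Tfcp2l1). Of all 32851 promoter windows of that length, 17.6% held the KLF site. The 2 windows of Nanog overlap and hold the same sites. Nanog held the POU and SOX composite at bases 102 to 110 of the printed window, a string found in 0.801% of all windows. Zfp42 held the octamer at bases 65 to 72, which 1.74% of all windows hold. The SOX core, in 12.6% of all windows, was found in 4 of the 9, those of Nanog, Lin28a and 1 of Esrrb. The STAT site TTCNNNGAA, in 8.3% of all windows, was found in 2 of the 9, of Esrrb and Lin28a. No window of the 7 genes held the ESRRB site AAGGTCA (4.72% of all windows), the MYC E-box CACGTG (7.15%), the TCF site CTTTGAT (3.73%) or the TFCP2L1 site CCAGNNNNNNCCAG (3.44%). A match states only that these letters stand in the window. The promoters also differed in composition. Sox2 and Tfcp2l1 had 66.3% and 65.3% G and C with a CpG content of 0.82 and 0.66 of expectation, and both windows of Nanog had 0.19 and 0.18. At 41.7% G and C, Tdgf1 lay below the median of 52.7% over all windows. A total of 2 of the 9 windows reached at least 55% G and C with at least 0.6 of the expected CpG, which 30.5% of all windows do.

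**Figure D1:**
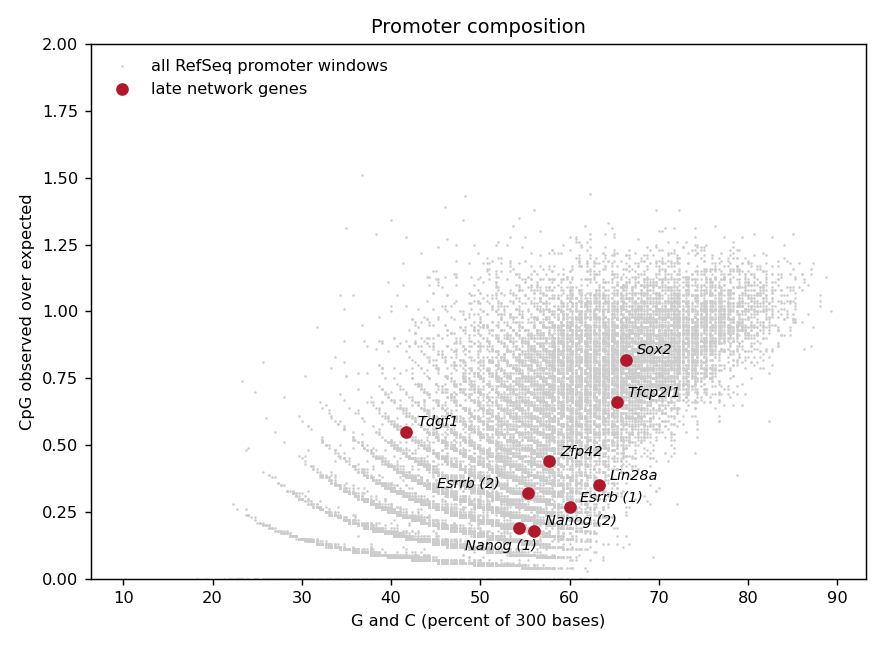
Share of G and C (percent, horizontal) and observed over expected CpG (vertical) in the 300-base promoter windows of RefSeq genes in grey, with the 9 windows of 7 late network genes in red and window numbers in parentheses where a gene has several. The Sox2 and Tfcp2l1 windows lie in the CpG-rich cloud and those of Nanog near the bottom, at 0.19 and 0.18.

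Among the transcription factors, Nanog, a homeodomain protein at the centre of the circuit, had an intensity of 5019 in ESC. It stood at 167.1 in CD73- cells and 119.6 in unsorted cells at day 9, and at the floor of 100 in SC4, MEF and the other 6 reprogramming arrays. The highest array other than ESC thus reached 3.33% of the ESC intensity, and ESC lay 30.04-fold above it. Both arrays above the floor were from day 9, and all 4 poised arrays were at the floor. These are bulk samples, in which fewer cells of a kind and less RNA per cell cannot be told apart. Sox2, an HMG-box factor that pairs with Oct4, had 3829 in ESC and 100 on all 10 other arrays, at least 38.3-fold lower. The 8 reprogramming arrays are from cells that were infected with a Sox2 virus, and whether the probe set detects the introduced copy was not tested. Klf4, another introduced factor, had 3476 to 4134 on those 8 arrays against 704.5 in MEF. The probe set of Pou5f1 (Oct4), introduced as well, had only 107.1 to 142 on them, against 105.2 in MEF and 122.7 in ESC.

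Esrrb, an orphan nuclear receptor, had 487.2 in ESC and 100 on all 10 other arrays, so that its fold of at least 4.87 is set by a modest ESC level. Tfcp2l1, a CP2 family factor that acts downstream of LIF, had 1744 in ESC. CD73+ cells had 119.5 and 102.7 at days 9 and 6, and CD49d+ cells 100.6 and 112.3. CD73- cells were at the floor on both days, unsorted cells had 100.1 and 100 at days 9 and 6, SC4 had 101.3 and MEF 100. All 4 poised arrays were thus above the floor, each within 20 units of it, and ESC lay 14.6-fold above the highest. Zfp42 had 1528 in ESC and 100 on all other arrays (at least 15.3-fold).

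Tdgf1, which presents Nodal to its receptors, had 7275 in ESC and 100 on the 10 other arrays. ESC lay at least 72.8-fold above each of them. Lin28a had 1248 in ESC. Outside ESC it was highest in unsorted cells, with 119.8 at day 9 and 108.8 at day 6, and had 101.2 in SC4 and in CD49d+ and CD73+ cells at day 9, with the floor on the other 5 arrays. ESC lay 10.4-fold above the highest of these.

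Dppa2 was the only one of the 10 far above the floor in SC4. It had 2713 in ESC, 684.7 in SC4 and 100 on all 8 reprogramming arrays and in MEF. ESC was 3.96-fold above SC4, and SC4 was at least 6.85-fold above MEF. Dppa4, its partner, which lies beside it on chromosome 16, had 1446 in ESC but 100.5 in SC4, 110.7 in unsorted cells at day 9 and 100 on the other 8 arrays. Dppa2 in SC4 thus had 25.2% of its ESC intensity, while Dppa4 stood at 100.5 there, next to the floor. Dppa5a, a KH-domain protein of early embryos, had 147.8 in ESC and 100 elsewhere. Its fold of at least 1.48 is the smallest of the set, and its level in ESC is close enough to the floor that little of a difference could be measured.

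**Figure D2:**
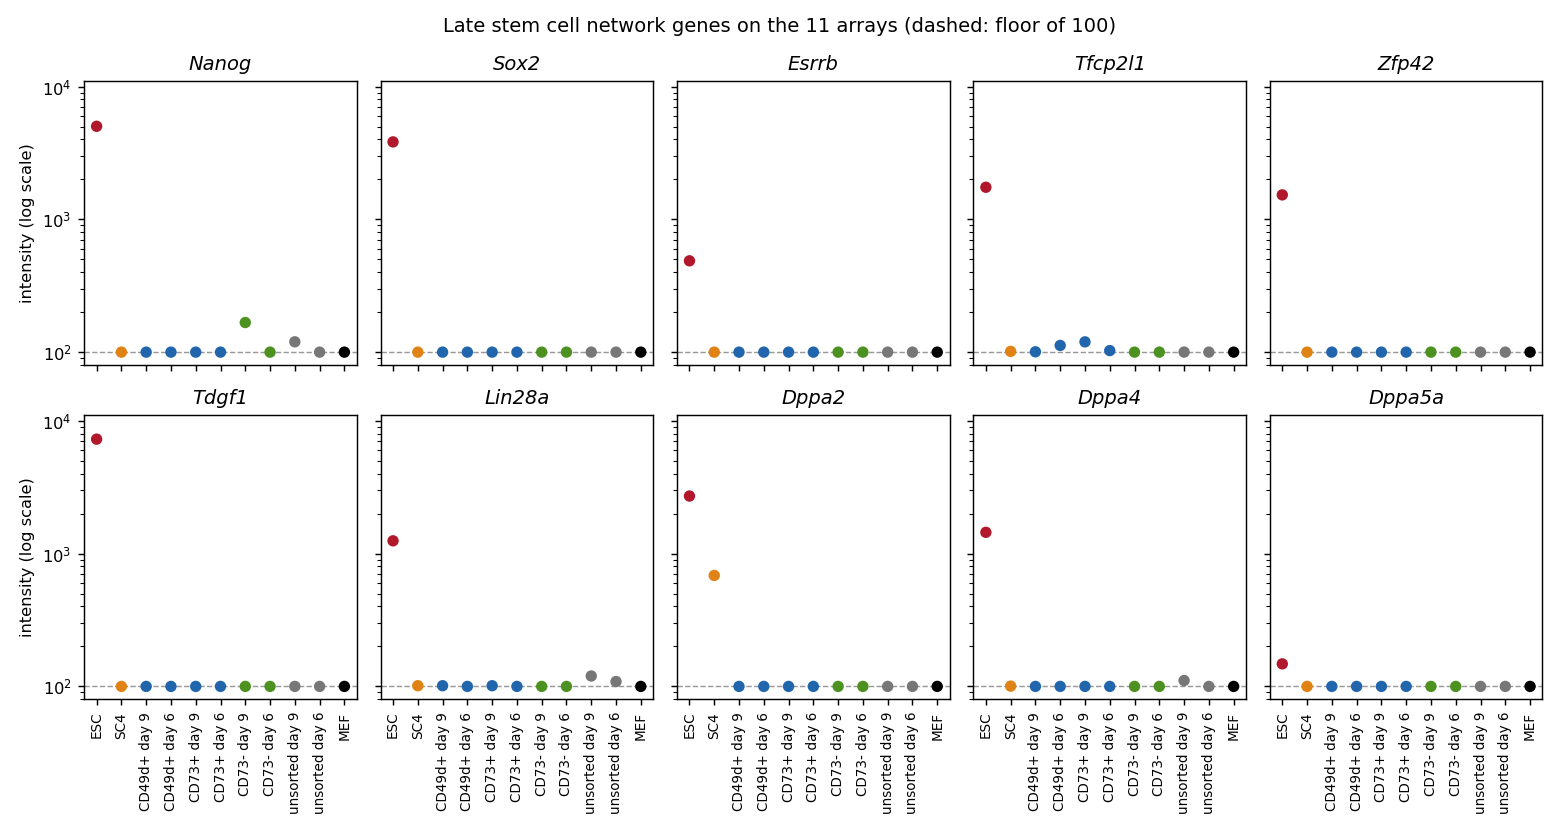
Intensity (log scale, vertical) of each late network gene on the 11 arrays, 1 point per array, with ESC in red, SC4 in orange, poised cells in blue, CD73- cells in green, unsorted cells in grey and MEF in black. ESC stands well above the other arrays in most panels. In that of Dppa2 SC4 has 684.7, in that of Dppa5a ESC has only 147.8, and the day 9 CD73- point of Nanog lies at 167.1.

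Set against all genes, 9 of the 10 were at least 2-fold higher in ESC than on any of the other 10 arrays, where 2.9% of the 14301 genes were. The choice of the genes fixes this count. The median gap, the log2 intensity in ESC minus that of the highest other array, was 3.79 for the 10 genes and -0.37 for all 14301. Of the 100 values of the 10 genes outside ESC, 84 were at the floor, 14 lay above it but below 120 and 2 were higher, Dppa2 in SC4 and Nanog in day 9 CD73- cells. By array, the genes above the floor numbered 10 in ESC and 4 in SC4. They numbered 2 and 1 in CD49d+ cells at days 9 and 6, 2 and 1 in CD73+ cells, 1 and 0 in CD73- cells and 4 and 1 in unsorted cells, and there were 0 in MEF. On the same arrays 53.3% to 57% of all 22180 genes were above the floor. Counting above 150 in place of 100 left 9 in ESC, 1 in SC4, 1 in day 9 CD73- cells and 0 on the other 8 arrays.

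**Figure D3:**
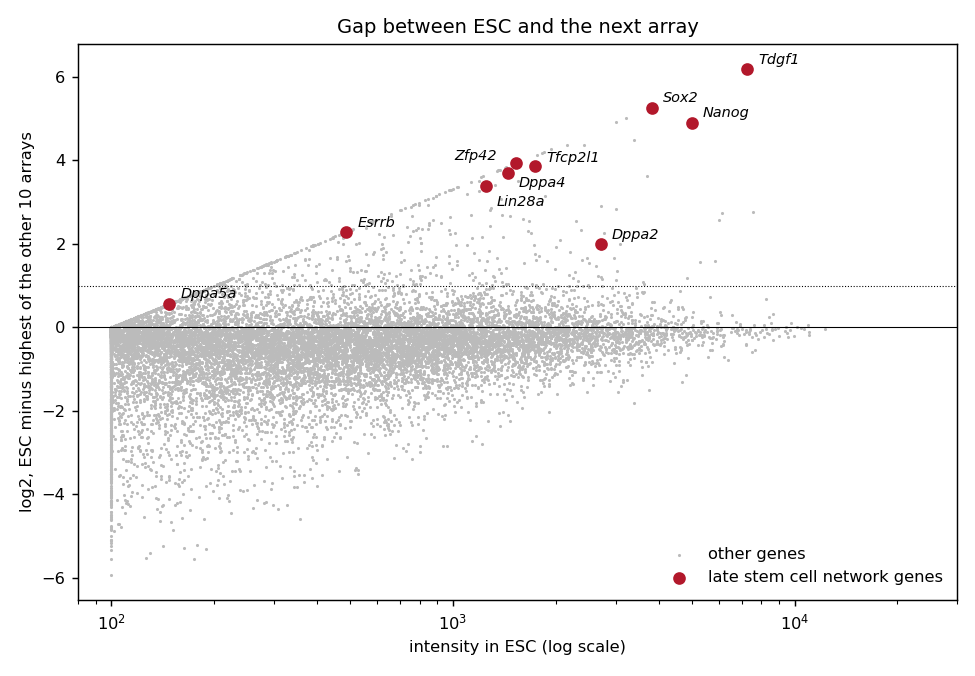
Gap in log2 units between ESC and the highest of the other 10 arrays (vertical) by the intensity in ESC (log scale, horizontal), for 14301 genes in grey with the 10 late network genes in red. Genes on the straight upper edge were at the floor outside ESC, so their gap is a lower bound, and the dotted line marks 2-fold.

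The comparisons among reprogramming populations say little about these genes, since the choice of genes near the floor outside ESC used the same 8 arrays and left 68 of the 80 values at the floor. At the floor on all 8 reprogramming arrays were 6 (Sox2, Esrrb, Zfp42, Tdgf1, Dppa2 and Dppa5a), and the other 4 entered the limma fit by values that mostly lay within 20 units of the floor. With 1 array per group, the fit took the 2 days as the repeats of a population and the populations as the repeats of a day, so its p-values measure only that agreement. Between poised cells (CD49d+ and CD73+ together) and CD73- cells, 0 of the 4 passed (Benjamini-Hochberg adjusted p, limit 0.05), and 0 reached 0.05 before adjustment. Over the 13313 genes tested, 12% passed, 7.16% higher and 4.85% lower in poised cells, and nothing is read from the members' count beside that share. Nanog had the largest estimate, a log2 difference of -0.37 ± 0.17 (SE; limma, adjusted p = 0.222), which rests on the 1 array of day 9 CD73- cells, since the other 5 sorted arrays were at the floor. Without the day 6 CD73- array it was -0.70 ± 0.112 (limma, adjusted p = 0.0939), and without the day 9 CD73- array it was -0.04. Tfcp2l1 had 0.12 ± 0.0863 (limma, adjusted p = 0.431) and Lin28a 0.01 ± 0.0558 (adjusted p = 0.964). Dppa4 was at 100 on all 6 sorted arrays and entered the fit only through day 9 unsorted cells, so this comparison does not test it. As values at the floor are bounds, these differences may understate what lies below it.

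Between days, none of the 4 passed either (limma, 0 also at an unadjusted p under 0.05). Nanog was 0.25 ± 0.139 higher at day 9 (limma, adjusted p = 0.563), and Lin28a (0.04 ± 0.0456), Dppa4 (0.04 ± 0.0475) and Tfcp2l1 (0.02 ± 0.0705) differed by less than their error. Of all 13313 genes 0 passed (0% of those tested), and 1545 had an unadjusted p under 0.05.

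Values of the rest of the stem cell network are set beside those of the 10, whose low counts outside ESC are fixed by their choice. Of 37 other network genes measured, 31 were at least 2-fold higher in ESC than in MEF, with a median log2 difference of 2.99, as were 9 of the 10 late genes, with a median of 4.03 (12% of the 14301 genes were). In SC4, 21 of the 37 were at least 2-fold above MEF but 1 of the 10 late genes, Dppa2 (11% of all genes). In all 4 poised arrays, 11 of the 37 were at least 2-fold above MEF, and 0 of the 10 (6.9% of all genes). On at least 1 of the 8 reprogramming arrays, 20 of the 37 reached 2-fold over MEF, and 0 of the 10 (16.6% of all genes). The growth factor gene Fgf4 had 3628 in ESC, 809 to 1266 in poised cells and 245.8 to 641.5 in CD73- and unsorted cells, against 100 in MEF. The chromatin factor Utf1 had 6013 in ESC and 225 to 1012 on the 8 reprogramming arrays against 149.1 in MEF. Between poised and CD73- cells 10 of 31 tested network genes rose and 1 fell (7.16% and 4.85% of all genes tested), a comparison in which 51 genes in all, against 1599, passed without the day 6 CD73- array and 131 without that of day 9. The gene that fell was Utf1 (log2 -1.06 ± 0.133, limma, adjusted p = 0.0144), with a list median of 0.13 against -0.01 for all genes tested. Klf4 and Pou5f1, both among the 37, were introduced by virus, and Klf4 is counted among the 21, 11 and 20 genes at least 2-fold above MEF. The probe set of Pou5f1 (Oct4) had 122.7 in ESC and 105.2 to 143.2 on the other arrays, so it did not separate stem cells from MEF. Other network genes shared the late pattern: Tcl1 (1027), Dnmt3l (1357), Mycn (484.6) and Prdm14 (292.3) in ESC were each at 100 on the 10 other arrays. Of all 488 genes at least 4-fold higher in ESC than in MEF, 9 of them late genes, 36.1% stayed under 2-fold above MEF on all 8 reprogramming arrays and 50.8% were at least 2-fold above MEF on all 4 poised arrays.

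**Figure D4:**
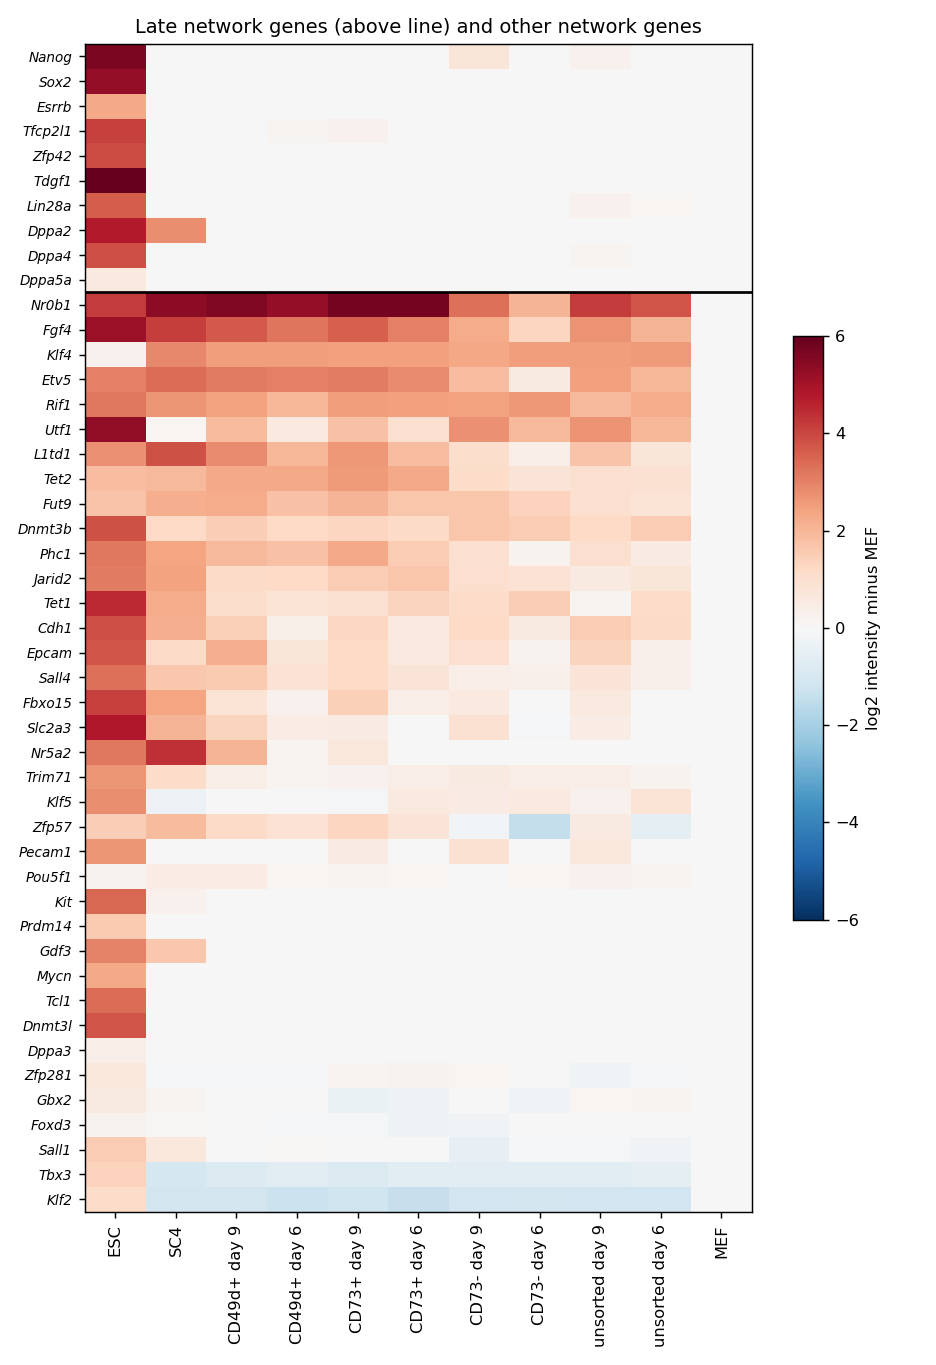
Log2 intensity minus MEF (colour) on the 11 arrays for the 10 late network genes above the line and 37 other stem cell network genes below it, ordered by their mean over the 8 reprogramming arrays. Colour outside ESC above the line is clearest for Dppa2 in SC4 and fainter for Nanog in day 9 CD73- cells, with traces for Tfcp2l1, Lin28a and Dppa4. Below the line 11 genes, the introduced Klf4 among them, are at least 2-fold above MEF in all poised arrays.

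Genes that act with the members were measured through lists for their pathways. For Tdgf1, 8 of 14 Nodal pathway genes were higher in ESC than in MEF by 2-fold or more and 2 were lower by as much (12% and 11.9% of all 14301 genes, for this and the next lists). The ligands Nodal (523.7 in ESC, 100 in MEF) and Gdf3 (796.5 and 100), the antagonist Lefty1 (848.4 and 150.6) and the nuclear partner Foxh1 (889.2 and 100) were higher, and Foxh1 was at the floor on all 10 arrays outside ESC, as Tdgf1 was. Gdf3 (307.6) and Nodal (207.1) were above the floor in SC4, where Tdgf1 was not. The signal carrier Smad2 had 1791 in ESC and 1746 to 1896 on the 10 other arrays. For Tfcp2l1, 4 of 12 LIF and STAT3 pathway genes were at least 2-fold higher in ESC and 2 lower. The feedback inhibitor Socs3 had 974.2 in ESC and 162 to 194 on the reprogramming arrays, against 334.9 in MEF. The receptor chain Il6st was lower in ESC, with 1774 against 5359 in MEF, and the LIF receptor gene Lifr had 1207 in ESC, 3120 in SC4, 394 to 985 on the reprogramming arrays and 925 in MEF. The repressor of Esrrb in stem cells is TCF3 (gene Tcf7l1). Of 10 WNT and TCF3 pathway genes, 1 was at least 2-fold higher in ESC than in MEF (Lef1) and 2 lower (Lgr5 and Rspo3). Tcf7l1 had 1625 in ESC, 842.7 to 1188 in poised cells, 467.8 to 582.9 in CD73- and unsorted cells and 906.6 in MEF. Its poised values thus lay around that of MEF, with CD73- cells below it. Tcf7l1 was higher in poised than in CD73- cells (log2 0.99 ± 0.0938, limma, adjusted p = 0.00806), as was Lef1 (0.73 ± 0.11, adjusted p = 0.0221). For Lin28a, 6 of 10 genes of the let-7 pathway were at least 2-fold higher in ESC and 0 lower. Trim71, a let-7 target, had 1027 in ESC, 343 in SC4, 178 to 233 on the reprogramming arrays and 161.5 in MEF. Dis3l2, the nuclease that degrades let-7 precursors tagged in the presence of LIN28, was highest in SC4, with 2780, against 790.5 in ESC and 283.8 in MEF.

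Of 16 paralogs of the members measured, 2 (Sox15 and Grhl3) were at least 2-fold higher in ESC than on any other array (2.9% of the 14301 genes were). Against MEF, 5 were at least 2-fold higher in ESC and 0 lower (12% and 11.9% of the 14301 genes), with a median log2 difference of 0.20. Khdc3 had 151.4 in ESC and 100 on the 10 other arrays, close to the values of Dppa5a. Ooep had 265.9 in ESC and at most 150.3 elsewhere, and Grhl2 was at 100 on all 11 arrays. Sox1, a relative of Sox2 known from neural cells, was above the floor on all 8 reprogramming arrays, from 326 to 1074, with 501.3 in ESC, 252.2 in SC4 and 100 in MEF, while Sox2 was at the floor on those 8 arrays. Sox15 had 1394 in ESC and 214.9 in SC4 and 100 in MEF, with 100 to 108.5 on the reprogramming arrays. Lin28b, which shares the let-7 function of Lin28a, had 215.7 in ESC, 100 in SC4 and MEF and 100 to 155 on the reprogramming arrays. Grhl3, of the wider family of Tfcp2l1, had 810 in ESC, 346.3 in SC4 and 109.9 in MEF. Yy1, the relative of Zfp42, had 2227 in ESC and 2005 to 2458 on the other arrays, and Esrra, the relative of Esrrb, 411 in ESC and 376 to 579 on the others.

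The genes most like the members were taken as those of largest gap between ESC and the highest other array. Many such gaps are lower bounds, so their true order is not known. As measured, the 12 largest gaps of other named genes were those of Zfp981, Zscan4e, H2ac1, Zfp980, Trim6, Zscan4b, Zfp640, Car4, Triml2, Sohlh2, Lrrc2 and Zscan4c, from at least 32.1-fold for Zfp981 to at least 13.7-fold for Zscan4c. Of these 12, 9 were at the floor on all 10 other arrays. Several Zscan4 genes are near-identical copies whose probe sets may not tell them apart. Across the 11 arrays each of the 12 had a Pearson r of 0.986 to 0.998 with the mean of the members, a value that the ESC array alone nearly sets. Over the 10 arrays without ESC, Lin28a and Tfcp2l1 were above the floor on at least 4, among 11605 such genes. Lin28a was within 2 units of the floor on 8 of these 10 arrays, so its r is set by the 2 unsorted ones, and that of Tfcp2l1 mainly by day 9 CD73+ and day 6 CD49d+ cells. The nearest genes to Lin28a were the keratin Krt18 (r = 0.982), Prodh2 (0.972) and Gabrp (0.948). Those to Tfcp2l1 were the interferon-induced Oas2 (0.949), Fhit (0.924) and Rere (0.911). Krt18 had 155.9 and 122.1 in unsorted cells at days 9 and 6, its highest values outside ESC, as Lin28a had. Oas2 was highest in CD73+ cells at day 9, with 1148, while it was at the floor in ESC.

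Zfp42 and Tdgf1 each had a neighbour in gene order that was at least 2-fold higher in ESC and at the floor on every other array, taking the 3 measured protein-coding genes on each side in the RefSeq gene order, a choice made after the values were seen. Of 54 neighbours that are not members, 39 were above the floor on some array and 5 of these (12.8%) were at least 2-fold higher in ESC than on any other array, against 2.9% of all genes. Beside Zfp42 lie Triml2 and Triml1, with 1760 and 843 in ESC and 100 on every other array. Beside Tdgf1 lies Lrrc2, with 1371 in ESC and 100 on every other array. Nanog lies between Dppa3 (130.9 in ESC, 100 elsewhere) and the glucose transporter gene Slc2a3, which had 7571 in ESC, 1111 in SC4, 254.9 to 680.9 on the reprogramming arrays and 270.8 in MEF. Gdf3, on the far side of Dppa3, was on in ESC and in SC4. Morc1, next to Dppa2, had 380.4 in ESC, 380.1 in day 6 CD73+ cells, 159.9 to 178.8 in the other poised arrays and 100 in CD73- cells at both days, and thus did not share the pattern of Dppa2 or Dppa4. Within 3 genes of Sox2, Esrrb, Tfcp2l1 and Lin28a, none reached 2-fold over every other array.

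**Figure D5:**
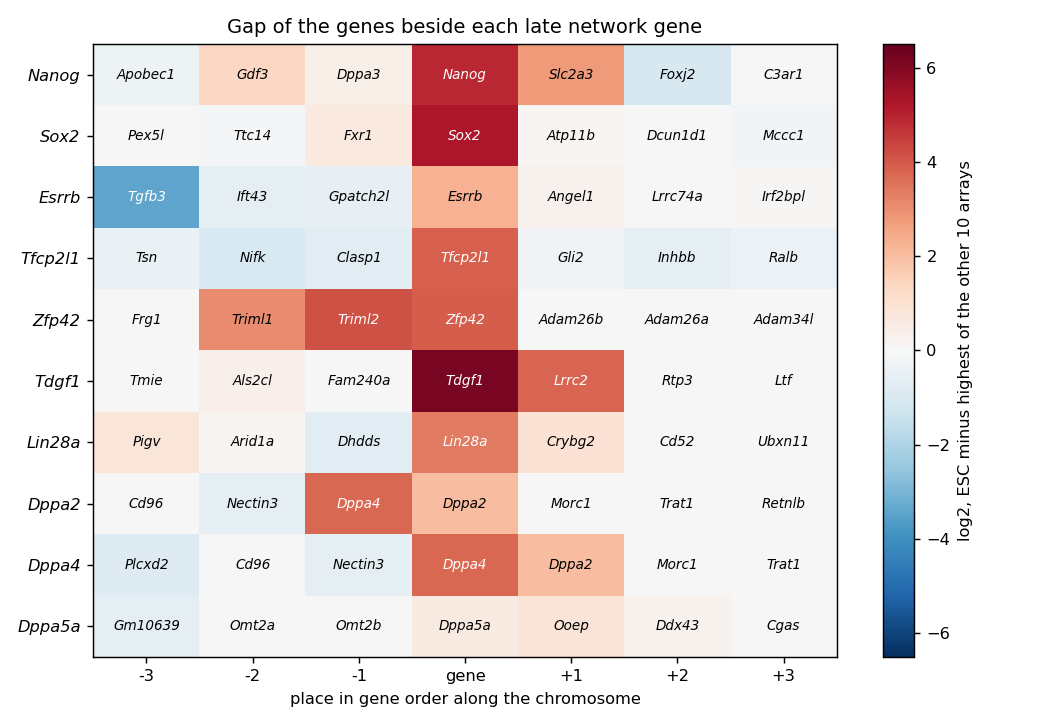
Gap in log2 units between ESC and the highest of the other 10 arrays (colour) for the 3 measured protein-coding genes on each side of every late network gene (rows), in gene order and not to scale. Triml1 and Triml2 beside Zfp42, Lrrc2 beside Tdgf1, and Gdf3 and Slc2a3 near Nanog stand out among the neighbours.

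Markers of other cells moved with the arrays as well. The summed intensity of 14 fibroblast markers was 10735 in ESC, 2288 in SC4, 8436 to 25571 on the reprogramming arrays and 69029 in MEF. The smooth muscle actin Acta2 alone, named after its value was seen, gave 6236 of the sum in ESC and 10220 of that in MEF. All the markers but Acta2, 13 of the 14, were at least 2-fold lower in ESC than in MEF (11.9% of the 14301 genes were). In ESC 12 of the 14 were above the floor (56.7% of all genes were), while Lum and Twist2 were at the floor. All 14 were above the floor in MEF (57% of all genes were), where the late genes were all at the floor, so that array measured no late gene. In the day 9 CD73- cells, where Nanog was 167.1, Pecam1, an adhesion molecule of stem cells and blood vessel cells, had 188.8. Among genes with at least 400 in ESC, Pecam1 and Nanog were the 2 that were at the floor in SC4, MEF and all day 6 populations but above 120 in day 9 CD73- cells and above the floor in day 9 unsorted cells, a search made after the Nanog values were seen. Pecam1 had 139.6 in day 9 CD73+ cells, where Nanog was at 100. Of 9 trophoblast markers 3 were at least 2-fold higher in ESC than in MEF (12% of the 14301 genes were). The 3 were Krt8 (995.8 and 265.1), Krt18 (980.2 and 100) and Tfap2c (498.4 and 100), while Cdx2 and Elf5 were at 100 on all 11 arrays. Of the 5 trophoblast markers tested, Ascl2, Esx1 and Hand1 were lower and Krt8 higher in poised than in CD73- cells (limma, adjusted p from 0.00706 to 0.0404). Of all 13313 genes tested, 4.85% were lower and 7.16% higher, and the comparison has 1 CD73- array per day. Of 10 primitive endoderm markers 2 were at least 2-fold higher in ESC than in MEF (Cubn and Lama1) and 3 lower (Pdgfra, Dab2 and Col4a1). Of the 14301 genes, 12% were higher and 11.9% lower by as much. Sox7 was at 100 on all arrays. The part of these markers in the results on the late genes was not tested.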

How the data were processed

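The deposited table holds linear probe set intensities for 41345 probe sets on 11 arrays, which the authors made with Partek, per the submitters' processing notes; how they summarised, background-corrected and scaled the arrays was not stated there or in the labels. No scaling was added. Of the probe sets, 23521 carry 1 gene symbol in the platform annotation, 1814 several and 16010 none. Symbols were updated through gene identifiers for 23328. Each member has 1 probe set; other genes took the probe set of highest mean. Genes above the median of all values, which is the floor of 100, on some array were kept (14301), and the 13313 of them above the floor on some reprogramming array were tested. Limma 3.58.1 (R 4.3.3; lmFit, eBayes) was fitted to log2 intensity on the 8 reprogramming arrays with terms for population and day, leaving 3 residual degrees of freedom and a prior of 2.12, with Benjamini-Hochberg adjustment. The script was tested on simulated data. The number of arrays limits the precision.

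The members, the lists and the naming rules were chosen with earlier results of these data known. By rule the named genes were all members and the 12 other genes of largest gap. The rule added the 3 genes of highest r for members above the floor on 4 or more of the 10 arrays without ESC. It also took up to 4 genes per list of largest ESC minus MEF difference. Not all of these list genes are printed, and counts of the primed epiblast and neural lists are not given. Other list genes and the neighbours were named after their values were seen. Alternatives were median centring, quantile normalization, the same fit adjusted as for all 22180 genes, no day term, the 6 sorted arrays and leaving out each array.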

Additional observations from a re-analysis of the deposited data

Results flagged for a closer look

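Among the list genes named by rule, 3 had poised minus CD73- differences of opposite sign at the 2 days in both CD49d+ and CD73+ cells, each from single arrays, and the difference between days was not tested. The day 9 difference minus the day 6 difference was -0.10 log2 units for Sox15 (-0.04 at day 9, 0.07 at day 6), whose values lay within 10 units of the floor. It was 0.38 for the predicted gene Gm4340 (0.13 at day 9, -0.25 at day 6) and -0.35 for the intermediate filament gene Nes (-0.23 at day 9, 0.11 at day 6). No late gene did so, an outcome largely fixed by their choice, since a gene at the floor on all sorted arrays of a day could not be flagged. At the floor on all 8 reprogramming arrays were 6 of them, and Dppa4 was at the floor on all sorted ones. Nanog and Lin28a were at the floor on all sorted arrays of day 6.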

How the results depend on the processing

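The count of late genes passing was 0 under every alternative run, which says nothing of stability, since their values lie at or near the floor. The adjusted p of Nanog for poised against CD73- cells ran from 0.0939 to 0.895, and that of Tfcp2l1 from 0.209 to 0.777. The count over all genes did move: for poised against CD73- cells it was 994 without the filter, against 1599, and with 1 array dropped it ran between 51 and 1775. Dropping a CD73- array gave 131 (day 9) or 51 (day 6), dropping a CD73+ array 213 (day 9) or 250 (day 6) and dropping the CD49d+ array of day 6 788, and such fits have 2 residual degrees of freedom. For day 9 against day 6 it was 110 with median centring, against 0, and 0 whichever array was dropped, with 758 to 2111 genes reaching 0.05 before adjustment in limma; the cause was not tested. The gap between ESC and the highest other array was at least 2-fold for 9 of the 10 genes under both scalings, and no gene's gap moved by more than 0.124 log2 units with centring or 0.101 with quantile normalization. The counts of members above the floor fell with the limit because most of those values lie below 120. Another probe set per gene could not be tried, since each member has 1. The fit compares populations within each day; without the day term 1181 genes passed for poised against CD73- cells. The floor of 100, which holds 52.14% to 54.31% of the probe sets on each array, limits every statement on the absence of these genes.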

Other observations

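Some listed genes of the 2-cell embryo and of germ cells were above the floor in ESC and at or near it elsewhere. DPPA2 and DPPA4 are known as activators of the 2-cell programme. Of 10 listed 2-cell genes measured, 5 were above the floor in ESC and 0 in SC4, where 56.7% and 54.3% of all genes were. Gm4340 was also above it in MEF (165) and on 7 of the 8 reprogramming arrays, up to 151.5. Zscan4c (1366) and Zscan4d (704.7) were on in ESC and at 100 on the other 10 arrays, SC4 included, where Dppa2 was at 684.7 and Dppa4 at 100.5. Duxf3, Tcstv1, Tcstv3, Tdpoz4 and Zfp352 were at 100 on all 11 arrays.

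Of 10 germ cell genes measured, 8 were above the floor in ESC and 0 in SC4 (56.7% and 54.3% of all genes), with a summed intensity of 3801 in ESC, 1000 in SC4, 1000 to 1007 on the reprogramming arrays and 1047 in MEF, where 10 genes at the floor sum to 1000. Mael had 1001 in ESC, Dazl 795.7, the helicase Ddx4 762.9 and Stra8 335.1. Tex101 and Nanos3 were at 100 in ESC too. Among the 79 genes at the floor in MEF and SC4 and at 400 or more in ESC, 5 of them late genes, those above the floor numbered 10 and 5 in CD49d+ cells at days 9 and 6, 7 and 5 in CD73+ cells, 8 and 5 in CD73- cells and 8 and 7 in unsorted cells.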
